A study of Mus musculus with 24 samples.

Results

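The Hox genes of the 4 mouse clusters were followed through 4 comparisons of cells depleted of MOF with their controls. They were taken as the genes whose symbol in the table of vehicle-treated mouse embryonic fibroblasts (MEFs) is Hox, a cluster letter from a to d and a paralog number, which gave 38 of its 43626 rows, and were matched by Ensembl ID in the other tables. MOF, encoded by Kat8, is an acetyltransferase of histone H4. Poly(A) RNA was sequenced from 24 samples in 8 groups of 3. These were Mof knockout MEFs given Adriamycin at 0.1 µg/ml for 24 h, Mof knockout MEFs given vehicle (DMSO), wild-type MEFs under the same 2 conditions, MPC5 podocytes with a Mof knockdown given Adriamycin at 0.25 µg/ml for 24 h, the same with vehicle, and MPC5 podocytes with a scramble control under both conditions. MEFs were at passage 2 and were freshly passaged. The podocytes, a cultured line of kidney filtration cells, were labelled as differentiated at passage 20. Adriamycin (doxorubicin) damages DNA. The labels give neither the Cre or allele behind the knockout nor the vector of the knockdown, and separate cultures are not mentioned for the 3 samples of any group, so the p-values reflect the scatter of these libraries, possibly technical alone. The Adriamycin dose differed between the cell types, as did the way MOF was depleted.

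Hox genes encode homeodomain transcription factors that give cells of the embryo their position along the body axis and the limbs. Within a cluster the genes stand in the order of their paralog numbers, and low numbers act toward the head while high numbers act toward the tail and the fingertips. Fibroblasts keep much of the Hox pattern of the site they came from when they are cultured, Polycomb complexes hold the genes silent elsewhere, and MLL-family methyltransferases keep them active. The paralogs numbered 11 are needed for kidney formation in the mouse.

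The 38 genes lie in GRCm38 (GENCODE M21) as 11 genes of cluster a within chr6:52155590-52260880 on the minus strand, 10 of cluster b within chr11:96194316-96368256, 9 of cluster c within chr15:102921103-103036852 and 8 of cluster d within chr2:74668310-74765142, the last 3 on the plus strand. Paralog numbers 1 to 3, called anterior here, gave 8 members, numbers 4 to 8, called central, gave 14, and numbers 9 to 13, called posterior, gave 16. Hoxd4 has no symbol in the tables, is therefore no member, and is given apart from the others. Because the genes are packed closely, 15 members share exon bases with another annotated gene, 5 of them over more than 25% of their exon bases. Those were Hoxd3 with 62.8%, Hoxb3 with 52.9%, Hoxa11 with 35.0%, Hoxb2 with 27.3% and Hoxa3 with 27.1%. The sources used here do not give the strand setting of the counting, so reads of these genes and of their overlapping or antisense partners may not be told apart.

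RefSeq's table of promoters (GRCm38.p6) held 23 starts of 21 members, and the 250 bases before each start were examined. Their median GC content was 59.2%, against 52.4% over all 32851 promoters of the table, and their median ratio of observed to expected CpG pairs was 0.75, against 0.37. The letters TGATTNAT, a sequence bound by Pbx and Hox proteins together, were found on either strand in 2 of the 23 (8.70%, against 2.82% of all promoters), TAATTA, a core homeodomain sequence, in 2 (8.70%, against 4.84%), and AGGTCA, the half-site of retinoic acid receptors, in 5 (21.7%, against 14.0%). Both starts with TAATTA belong to Hoxd11, and the downstream one also holds TGATTNAT. Of cluster c only Hoxc4 was covered, and of cluster b only Hoxb1, Hoxb4 and Hoxb8. The 3 promoters below are shown for members that stand for the patterns in podocytes described further on: Hoxa5 was higher after knockdown with vehicle and lower with Adriamycin, Hoxb8 was higher under both conditions, and Hoxa13 had the lowest fold change of all members. CpG pairs are in capitals, sequences run 5′ to 3′ on the strand of the gene, and the next base is the annotated start. Hoxa5 (chr6:52204588-52204837, minus strand) holds 28 CpG pairs, Hoxb8 (chr11:96281655-96281904, plus strand) holds 12 and Hoxa13 (chr6:52260881-52261130, minus strand) holds 35. None of the 3 holds any of the motifs searched.
Hoxa5: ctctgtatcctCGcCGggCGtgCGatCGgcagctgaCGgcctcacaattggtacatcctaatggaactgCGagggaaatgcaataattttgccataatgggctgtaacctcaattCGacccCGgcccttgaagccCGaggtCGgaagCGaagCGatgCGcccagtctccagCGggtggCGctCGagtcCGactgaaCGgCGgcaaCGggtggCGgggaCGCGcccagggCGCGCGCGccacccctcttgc
Hoxb8: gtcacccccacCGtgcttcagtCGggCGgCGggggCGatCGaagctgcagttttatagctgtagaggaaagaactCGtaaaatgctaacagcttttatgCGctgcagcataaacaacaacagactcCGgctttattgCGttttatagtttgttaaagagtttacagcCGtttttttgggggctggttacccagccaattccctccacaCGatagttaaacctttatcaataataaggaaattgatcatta
Hoxa13: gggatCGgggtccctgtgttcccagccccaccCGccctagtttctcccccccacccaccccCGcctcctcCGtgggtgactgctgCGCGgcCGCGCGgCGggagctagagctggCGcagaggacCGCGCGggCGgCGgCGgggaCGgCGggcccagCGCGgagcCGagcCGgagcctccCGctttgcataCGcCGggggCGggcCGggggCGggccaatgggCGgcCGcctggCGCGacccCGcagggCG

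The files hold the comparisons made by the authors with DESeq2 and no value per sample, so a gene is described here by 4 quantities of the authors' deposited table of that comparison: the mean normalized count over the 6 samples compared, the log2 fold change of Mof-depleted over control cells, its standard error (SE) and the adjusted p. Levels given for 1 group were derived from the mean count and the fold change. Kat8 was lower in every comparison of the authors' deposited tables, with log2 fold changes of -1.71 ± 0.16 and -1.96 ± 0.20 (SE) in MEFs with Adriamycin and vehicle and -1.24 ± 0.14 and -1.49 ± 0.15 in podocytes with Adriamycin and vehicle. The direction of the tables was read from Kat8, so it is no separate check of the labels. Of the fibroblast markers, Col1a1 had mean counts of 116732 and 180211 in the authors' deposited tables of MEFs with Adriamycin and vehicle. The podocyte gene Nphs1 was at 0 with vehicle and at 0.505 with Adriamycin there. Most of the podocyte markers were nevertheless detected in MEFs. Of the 10 markers, 8 could be tested there under either condition. With vehicle the mean counts of the markers summed to 39769, of which 1 marker alone gave 34470. Both podocyte tables list the podocyte genes Podxl and Synpo as higher after knockdown. With Adriamycin, 4 of the 10 podocyte markers were listed as higher and 1 as lower, beside 27.8% and 27.9% of all tested genes. The defining podocyte genes Nphs1 and Wt1 are in neither podocyte table. Only genes below an adjusted p of 0.05 are listed for podocytes, so this does not show whether Nphs1 and Wt1 were expressed there. In MEFs with vehicle, 4 of 8 macrophage and leukocyte genes were higher in the knockout, beside 17.8% of all tested genes. Lyz2 was higher by 1.29 and Adgre1 by 1.21 on the log2 scale in the authors' deposited table. With Adriamycin none of the 7 tested passed, beside 32.7% of all tested genes. The part of these genes in the results was not tested. In bulk RNA a different number of cells of a type and a different amount of RNA per cell cannot be told apart.

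MEFs expressed Hox genes of all 4 clusters, from the anterior to the most posterior paralogs. Levels per kb of exon are compared between genes within 1 table. Hoxb9, which acts with its paralogs in the thoracic skeleton and mammary gland, was the highest member, with 506 mean normalized counts per kb in the authors' deposited table for Adriamycin and 444 in that for vehicle. In cluster c the highest was Hoxc6, a gene of the thoracic level, with 432 and 254 counts per kb in the authors' deposited tables for Adriamycin and vehicle. In cluster a it was Hoxa5, which is needed for lung development and cervical patterning, with 323 and 168 per kb. In cluster d it was Hoxd13, which forms the digits, with 259 and 224 per kb. At the other end, Hoxb1 and Hoxd1, hindbrain genes with the lowest paralog number, had mean counts of 0.319 and 1.80 in the authors' deposited table for Adriamycin and 0 and 0.501 in that for vehicle. Hoxd3 and Hoxb13 were also low, with mean counts of 9.56 and 12.5 in the table for Adriamycin and 11.1 and 16.7 in that for vehicle. The cluster medians per kb were 59.9 and 53.3 (a), 85.8 and 84.1 (b), 107 and 76.0 (c) and 31.7 and 28.6 (d) with Adriamycin and vehicle. The tables were normalized separately and differ in their drug, so levels of the 2 tables were not tested against each other.

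**Figure D1:**
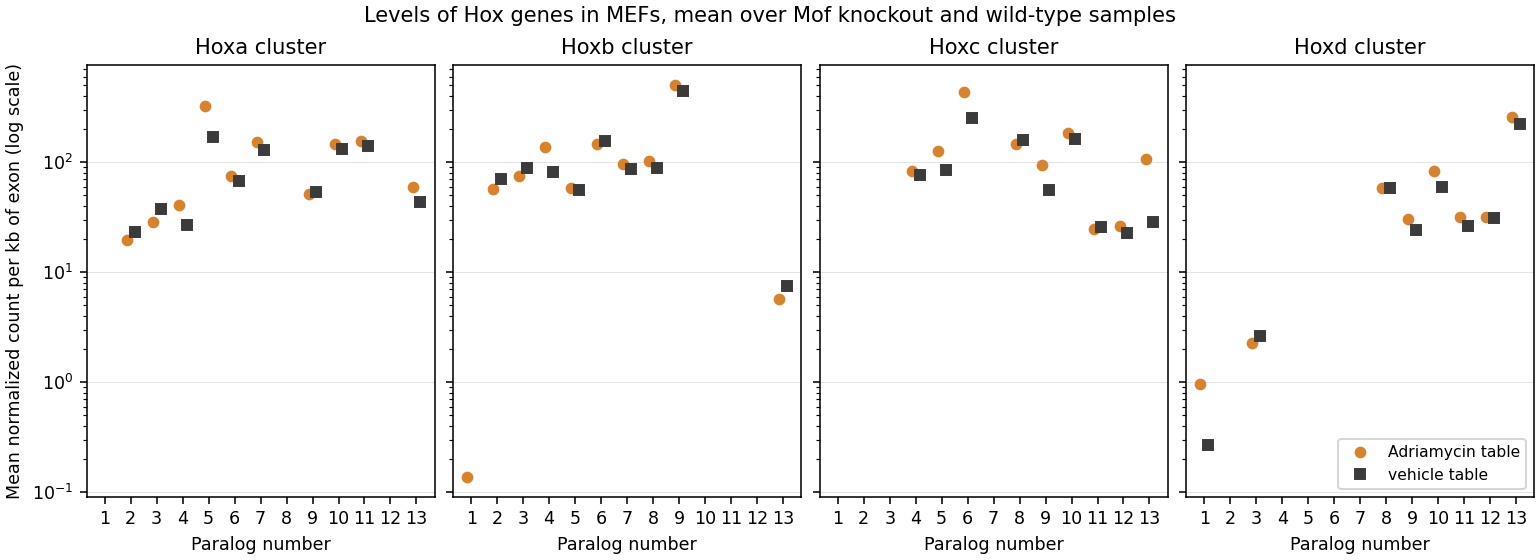
Mean normalized count per kb of exon (log scale) of Hox genes in MEFs, by cluster and paralog number, in the authors' deposited tables for Adriamycin (circles) and vehicle (squares); each point is the mean over 3 Mof knockout and 3 wild-type samples. Hoxb9 is highest, at 506 and 444 per kb, and the lowest points are Hoxb1 and Hoxd1; Hoxb1 has no square because its mean count with vehicle was 0.

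With vehicle, 3 of the 36 members with an adjusted p were higher in Mof knockout than in wild-type MEFs and none was lower. Over all genes, 37.5% passed the same test (adjusted p below 0.05, DESeq2 as run by the authors), 17.8% as higher and 19.6% as lower, so a smaller share of the Hox genes passed, 8.33%, than of the genes as a whole. The tested members were measured less precisely, with a median SE of 0.21 and a median mean count of 177, beside 0.15 and 338 for all tested genes. The shares were not compared at equal precision. Hoxc13, which controls hair and nail keratins, had a mean count of 70.9 and a log2 fold change of 1.08 ± 0.30 (SE) in the authors' deposited table (adjusted p = 0.00144). Its derived level was 96.4 in knockout MEFs and 45.4 in wild-type MEFs. Hoxb5, a regulator of the enteric nervous system, had a mean count of 156 and a log2 fold change of 0.54 ± 0.19 (adjusted p = 0.0179), with derived levels of 184 in knockout and 127 in wild-type MEFs. Hoxd3, which patterns the first vertebrae, had a log2 fold change of 1.48 ± 0.55 (adjusted p = 0.0220) in the authors' deposited table, from a mean count of 11.1 and with 62.8% of its exon bases shared with Hoxd4 and noncoding genes. The median log2 fold change of the tested members was 0.09, beside 0.01 for all tested genes.

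The other 33 tested members did not pass in the authors' deposited table for vehicle. For 28 of them the 95% interval (1.96 SE to either side) lay within a 2-fold change. Hoxb3 lay close to the threshold, with 0.31 ± 0.15 (adjusted p = 0.0982). The highest members of each cluster did not pass: Hoxb9 had 0.20 ± 0.13, Hoxc6 had 0.15 ± 0.15, Hoxa5 had 0.05 ± 0.21 and Hoxd13 had -0.28 ± 0.44. Hoxd1 had too few reads for an adjusted p.

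With Adriamycin, 5 of 34 members with an adjusted p differed between Mof knockout and wild-type MEFs, 3 higher and 2 lower, or 14.7%, beside 32.7% of all tested genes (16.6% higher, 16.1% lower). Here too the median SE of the tested members, 0.20, was larger than that of all tested genes, 0.15. Hoxc13 was again higher, with a mean count of 262 and a log2 fold change of 1.02 ± 0.22 in the authors' deposited table (adjusted p = 4.52e-05). Its derived level was 351 in knockout and 173 in wild-type MEFs. Hoxb5 had 0.52 ± 0.18 (mean count 164, adjusted p = 0.0154). Hoxa11, which with Hoxd11 forms the forearm and with its paralogs the kidney, had 0.50 ± 0.17 (mean count 354, adjusted p = 0.0127) and shares 35.0% of its exon bases with the antisense gene Hoxa11os. The lower genes were thoracic genes of cluster c. In the authors' deposited table Hoxc6 had a log2 fold change of -0.36 ± 0.12 (mean count 1040, adjusted p = 0.0148), and Hoxc8 had -0.46 ± 0.19 (mean count 418, adjusted p = 0.0465). Hoxc8 no longer passed when changes were taken relative to the median of tested genes whose mean count reached 100 (adjusted p = 0.0555). Nor did Hoxc8 pass when the adjustment ran over every gene with a p (adjusted p = 0.0886).

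The median log2 fold change of the tested members with Adriamycin was -0.02, equal to that of all tested genes at this precision. The 29 members that did not pass ranged from -0.44 to 0.44 in the authors' deposited table, 26 of them with a 95% interval within 2-fold, and the smallest adjusted p among them was 0.174 for Hoxc4. Hoxb1, Hoxb13, Hoxd1 and Hoxd3 had no adjusted p. Hoxb9 had 0.18 ± 0.13, Hoxa5 had 0.03 ± 0.17 and Hoxd13 had -0.28 ± 0.42. The effect of the knockout was then compared between the drug conditions by a z test on the fold changes of both authors' deposited tables, adjusted over 13973 genes, of which 7.09% passed. None of 34 members passed, and 2 had an unadjusted p below 0.05. These were Hoxc6, with a difference (Adriamycin minus vehicle) of -0.50 ± 0.20 and an adjusted p of 0.0987, and Hoxc8, with -0.50 ± 0.24 and an adjusted p of 0.203. Standard errors of the difference ran from 0.18 to 0.75, and for 24 of 34 members the 95% interval lay within 2-fold.

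**Figure D2:**
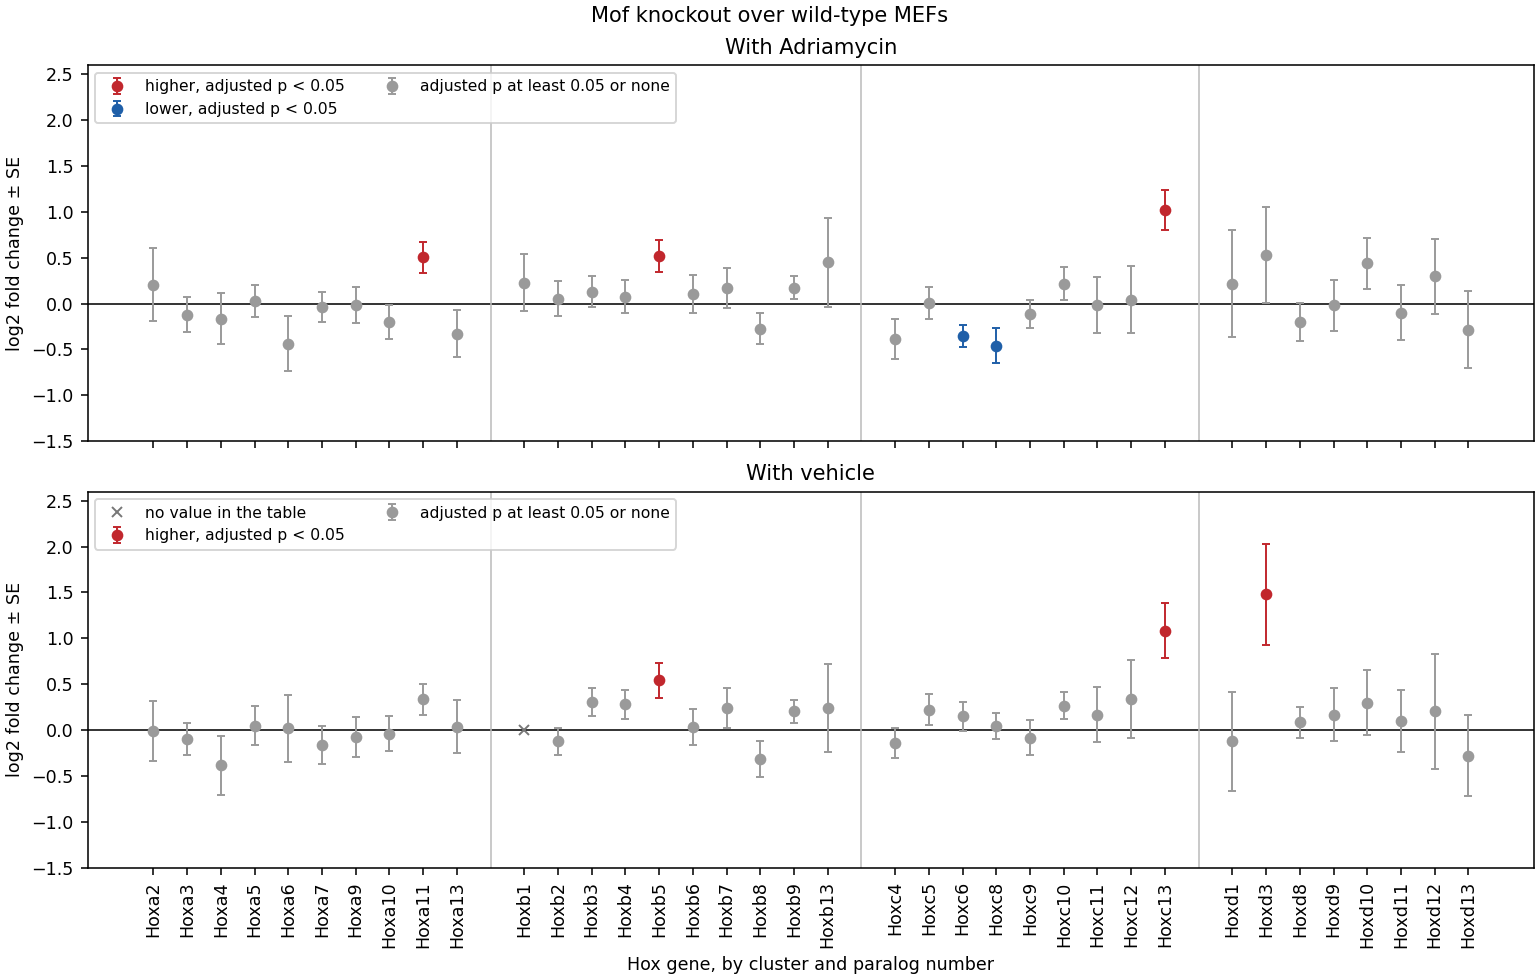
log2 fold change of Mof knockout over wild-type MEFs (points, bars are SE) for Hox genes, by cluster and paralog number, with Adriamycin (top) and vehicle (bottom), from the authors' deposited tables. Most members lie near 0; Hoxc13 and Hoxb5 are higher in both panels, and Hoxb1 with vehicle has no fold change.

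In podocytes with vehicle, 15 of the 16 Hox genes that passed were higher after Mof knockdown, and they belonged to clusters a, b and c. Only genes that passed 0.05 after adjustment are in the podocyte tables, so a member without a row either did not pass or was not tested. With vehicle, 16 of 38 members were listed, 15 as higher (39.5%, beside 8.70% of all tested genes) and 1 as lower (5.64% of all), or 42.1% beside 14.3% in either direction. The 15 came from cluster a (Hoxa3, Hoxa5, Hoxa6, Hoxa7, Hoxa9 and Hoxa10), cluster b (Hoxb2, Hoxb3, Hoxb5, Hoxb8 and Hoxb9) and cluster c (Hoxc8, Hoxc9, Hoxc10 and Hoxc11). No member of cluster d was listed. None reached a 2-fold change, as 1.88% of all tested genes did upward and 0.339% downward, and all had mean counts of 113 or more.

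The largest of these changes was that of Hoxb8, a gene known from myeloid progenitors and spinal patterning, with a mean count of 583 and a log2 fold change of 0.91 ± 0.14 in the authors' deposited table (adjusted p = 3.09e-09). Its derived level was 761 in knockdown and 405 in scramble podocytes. Hoxa10, which patterns the lumbar skeleton and the uterus, had 0.83 ± 0.16 (mean count 1031, adjusted p = 1.78e-05). Its neighbour Hoxa9, a regulator of blood stem cells, had 0.50 ± 0.08 (mean count 1586, adjusted p = 3.81e-08). Of the central genes of cluster a in the authors' deposited table, Hoxa5 had 0.66 ± 0.16 (mean count 480, adjusted p = 0.000876), Hoxa6 had 0.64 ± 0.18 (162, 0.00631) and Hoxa7 had 0.70 ± 0.16 (451, 0.000417). Hoxa3, needed for the thymus and parathyroid, had 0.45 ± 0.13 (348, 0.0081). In cluster b, Hoxb2 and Hoxb3, hindbrain genes, had 0.48 ± 0.12 (650, 0.000916) and 0.64 ± 0.13 (1058, 6.7e-05), Hoxb5 had 0.53 ± 0.12 (843, 0.00014) and Hoxb9 had 0.22 ± 0.07 (4184, 0.0315).

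In cluster c with vehicle, genes from the thoracic to the lumbar level were higher after knockdown, and the last gene of the cluster was lower. Hoxc8 had a log2 fold change of 0.68 ± 0.19 (mean count 113, adjusted p = 0.00487) in the authors' deposited table, Hoxc9, which sets thoracic motor neuron identity, had 0.63 ± 0.15 (324, 0.000988), Hoxc10, a lumbar gene, had 0.48 ± 0.12 (739, 0.00214) and Hoxc11 had 0.58 ± 0.14 (261, 0.000517). Hoxc13 had -0.46 ± 0.13 (339, 0.00653), with a derived level of 285 in knockdown and 393 in scramble podocytes. The median log2 fold change of all listed genes was 0.35, so listed genes as a whole leaned the same way.

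With Adriamycin, 21 of 38 members were listed, 13 as higher (34.2%, beside 27.8% of all tested genes) and 8 as lower (21.1%, beside 27.9%). The total, 55.3% of the members, was close to the 55.7% of all tested genes that passed in this comparison, so the number of listed Hox genes does not set them apart. The direction differed between the clusters, and along cluster c. Cluster b had 7 higher and no lower genes. In cluster c, Hoxc4, Hoxc5 and Hoxc6 were higher, and Hoxc10, Hoxc11, Hoxc12 and Hoxc13 were lower. Over all clusters, 2 anterior members were higher and none lower, 8 central members were higher and 2 lower, and 3 posterior members were higher and 6 lower. Cluster a did not follow this order: Hoxa9 and Hoxa10 were higher, and Hoxa5, Hoxa7 and Hoxa13 were lower. Of the lower posterior members, Hoxa13, Hoxc12 and Hoxd10 had mean counts of only 10.1, 10.7 and 4.27. The counts by position describe the listed members and were not tested.

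In cluster b with Adriamycin, Hoxb5 rose most, with a mean count of 336 and a log2 fold change of 1.09 ± 0.11 in the authors' deposited table (adjusted p = 4.9e-22). Its derived levels were 458 in knockdown and 215 in scramble podocytes. Hoxb2 had 1.01 ± 0.12 (mean count 276, adjusted p = 5.85e-16) and shares 27.3% of its exon bases with Hoxb3os, as does Hoxb3 over 52.9%, which had 0.72 ± 0.10 (376, 8.23e-12). Of the central genes, Hoxb6, a gene of the lateral plate mesoderm, had 0.73 ± 0.07 (1175, 6.27e-27), Hoxb8 had 0.84 ± 0.14 (202, 2.58e-09) and Hoxb4, known for expanding blood stem cells, had 0.38 ± 0.11 (399, 0.00125). Hoxb9, the listed member with the highest mean count, had 0.20 ± 0.05 (3015, 0.000253) in the authors' deposited table.

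In cluster c with Adriamycin, the higher genes had log2 fold changes of 0.78 ± 0.27 for Hoxc4 (mean count 47.8, adjusted p = 0.00891), 0.88 ± 0.28 for Hoxc5 (46.3, 0.00398) and 0.71 ± 0.12 for Hoxc6 (316, 1.1e-08) in the authors' deposited table. The lower genes had -0.55 ± 0.08 for Hoxc10 (669, 2.66e-10), -0.65 ± 0.15 for Hoxc11 (180, 2.71e-05), -1.13 ± 0.50 for Hoxc12 (10.7, 0.0412) and -1.01 ± 0.07 for Hoxc13 (866, 3.46e-43). Hoxc13 had derived levels of 574 in knockdown and 1157 in scramble podocytes. Hoxc8 and Hoxc9, between the higher and the lower genes, were not listed. Hoxc5 and Hoxc10, which lie on different sides of that boundary, share 5.37% and 8.70% of their exon bases.

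In clusters a and d with Adriamycin the picture was mixed. In the authors' deposited table, Hoxa9 and Hoxa10 were higher, with 0.32 ± 0.07 (mean count 781, adjusted p = 3.97e-05) and 0.43 ± 0.10 (532, 1.54e-05). Hoxa5 and Hoxa7 were lower, with -0.34 ± 0.09 (599, 0.000442) and -0.70 ± 0.09 (446, 6.49e-13). Hoxa13, which with Hoxd13 forms the digits, had the lowest fold change of any member, -2.38 ± 0.55 (10.1, 3.99e-05), from derived levels of 3.27 in knockdown and 17.0 in scramble podocytes. Hoxd8 had 0.62 ± 0.20 (88.4, 0.00363) and Hoxd10, a lumbar motor neuron gene, had -1.58 ± 0.65 (4.27, 0.0291). Hoxa13, Hoxc12 and Hoxd10 rest on few reads, and the sources do not say how many fell in each sample. Hoxd4, the gene without a symbol, had 1.19 ± 0.44 in podocytes with Adriamycin (14.2, 0.0147), and -0.29 ± 0.36 and 0.30 ± 0.45 in MEFs with Adriamycin and vehicle (adjusted p = 0.573 and 0.647).

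**Figure D3:**
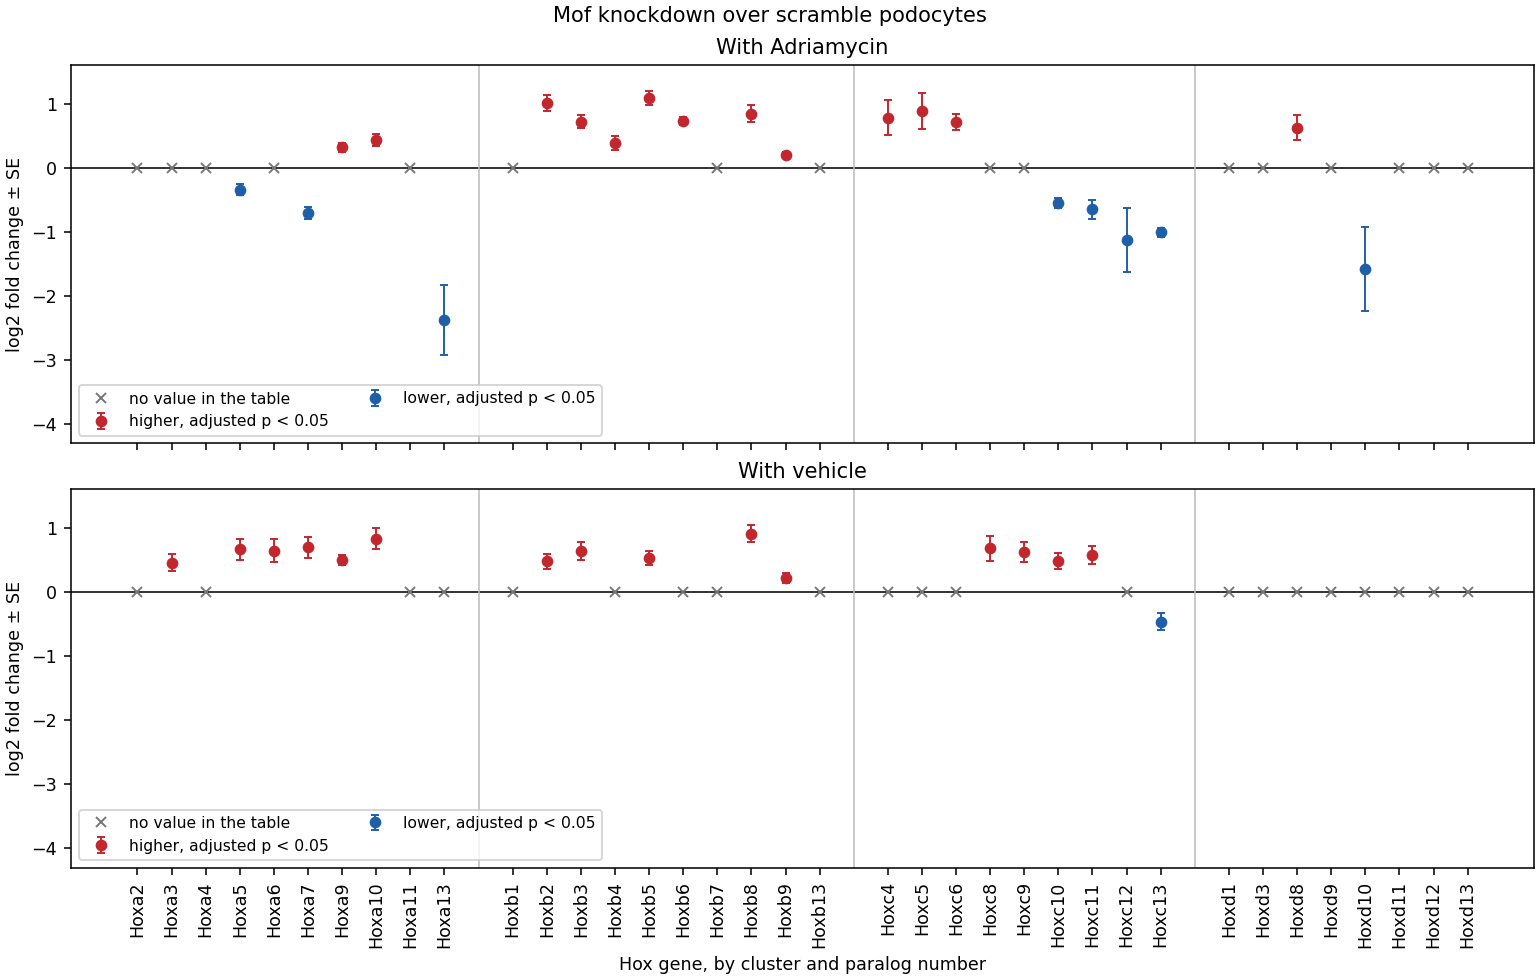
log2 fold change of Mof knockdown over scramble podocytes (points, bars are SE) for Hox genes, by cluster and paralog number, with Adriamycin (top) and vehicle (bottom), from the authors' deposited tables; crosses at 0 mark members without a row, whose change is not known. With vehicle 15 of 16 listed members are higher, and with Adriamycin the 7 listed members of cluster b are higher while Hoxc10 to Hoxc13 are lower.

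Of the 12 members listed in both podocyte tables, 7 were higher in both, 1 was lower in both (Hoxc13) and 4 were higher with vehicle but lower with Adriamycin. These 4 were Hoxa5, Hoxa7, Hoxc10 and Hoxc11. Opposite signs were also seen in 34.3% of the 1518 genes listed in both tables, a share close to that of the members. A z test of the difference between the drug conditions, added after the data were seen, was adjusted over these 1518 genes, of which 63.4% passed, and 7 of the 12 members passed. The p-values are not those of unselected genes, since each gene had already passed in both tables. The largest difference, Adriamycin minus vehicle, was -1.40 ± 0.19 for Hoxa7 (adjusted p = 4.55e-13), followed by -1.22 ± 0.20 for Hoxc11 (3.06e-09), -1.03 ± 0.15 for Hoxc10 (3.07e-11), -1.01 ± 0.19 for Hoxa5 (1.62e-07) and -0.55 ± 0.15 for Hoxc13 (0.000556). Hoxb5 and Hoxb2 had the higher fold change with Adriamycin, by 0.56 ± 0.16 (0.00084) and 0.53 ± 0.17 (0.00336). Hoxa10 missed the threshold, with -0.39 ± 0.19 (adjusted p = 0.0579). Differences for Hoxa9, Hoxb3, Hoxb8 and Hoxb9 lay between -0.18 and 0.08 and did not pass.

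The change after MOF depletion was next compared between the cell types, by the same z test on members listed for podocytes, again added after the data were seen. It sets a knockdown against a knockout and, with Adriamycin, 1 dose against another, and these cannot be told apart from the cell type. With vehicle, 10 of 16 members differed, 9 with the higher fold change in podocytes, beside 54.8% of the 1982 genes compared. Hoxb8 differed most among those, with 0.91 in podocytes and -0.32 in MEFs, a difference of 1.23 ± 0.24 (adjusted p = 2.76e-06). Hoxc13 differed the other way, with -0.46 in podocytes and 1.08 in MEFs, a difference of -1.55 ± 0.33 (1.46e-05). With Adriamycin, 15 of 21 members differed, 10 with the higher and 5 with the lower fold change in podocytes, beside 77.3% of 9564 genes. Hoxc6 had 0.71 in podocytes and -0.36 in MEFs, a difference of 1.07 ± 0.17 (1.77e-09), and passed in both cell types in opposite directions. Members listed for podocytes had passed there and not necessarily in MEFs, so the choice of members favours a difference.

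Of the 38 members, 27 passed in at least 1 comparison and 11 in none. Among the 36 members tested in MEFs with vehicle the 27 are 75%, beside 74.6% of all genes tested there, so this count does not set the Hox genes apart. Among those 11 were Hoxb7 and Hoxb13 of cluster b and Hoxd9, Hoxd11, Hoxd12 and Hoxd13 of cluster d. Hoxb5 and Hoxc13 passed in all 4, as did 2.40% of the genes tested in MEFs with vehicle. Hoxb5 was higher in all 4 comparisons. Hoxc13 was lower after MOF depletion in podocytes, with -1.01 ± 0.07 and -0.46 ± 0.13 for Adriamycin and vehicle in the authors' deposited tables, and higher in MEFs, with 1.02 ± 0.22 and 1.08 ± 0.30. The difference between podocytes and MEFs with Adriamycin was -2.03 ± 0.23 for Hoxc13 (adjusted p = 1.12e-17) and 0.57 ± 0.21 for Hoxb5 (0.00964).

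**Figure D4:**
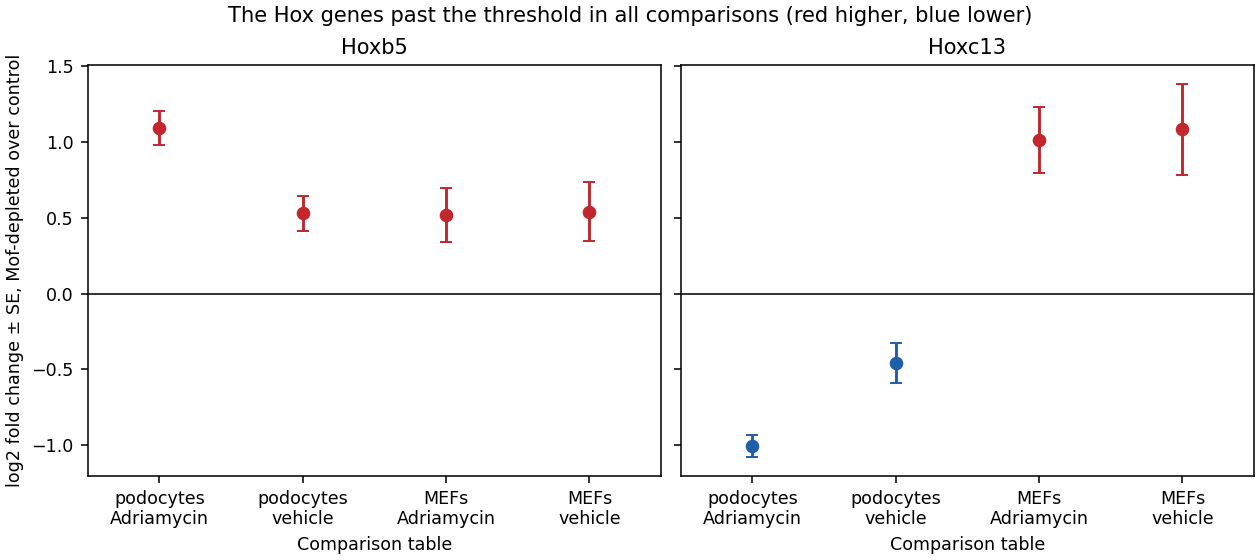
log2 fold change of Mof-depleted over control cells (points, bars are SE) for Hoxb5 and Hoxc13 in the 4 comparisons of the authors' deposited tables. Hoxb5 lies above 0 in all 4, and Hoxc13 lies below 0 in podocytes (-1.01 and -0.46) and above 0 in MEFs (1.02 and 1.08).

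Of 42 noncoding genes inside the clusters, 5 were listed in podocytes with Adriamycin, where 55.7% of all tested genes passed. How many of the 42 were tested there is not known, and 29 had mean counts below 10 in MEFs under each condition. Hotair, a long noncoding RNA transcribed between Hoxc11 and Hoxc12, had a log2 fold change of -2.02 ± 0.19 (mean count 140, adjusted p = 1.59e-24) in the authors' deposited table, in the stretch where Hoxc10 to Hoxc13 were lower. Hoxb5os, antisense to Hoxb5, had -1.30 ± 0.17 (134, 1.03e-13), while Hoxb5 itself was higher, and they share 3.59% of the exon bases of Hoxb5. Hoxaas2 had -1.01 ± 0.35 (26.0, 0.00858), Mir196a-1 had 0.71 ± 0.21 (76.3, 0.00215) and Gm53 had 0.25 ± 0.07 (1667, 0.00119). In MEFs with vehicle 16 of the 42 were tested, and Gm53 alone passed, beside 37.5% of all tested genes. It was higher, with 0.44 ± 0.12 (533, 0.00084). In MEFs with Adriamycin 12 were tested and none passed, beside 32.7% of all tested genes. None was listed in podocytes with vehicle, where 14.3% of all tested genes passed.

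The 40 protein-coding genes that flank the clusters, 5 on each side, changed in both directions. In MEFs, 11 of 35 tested passed with Adriamycin (4 higher, 7 lower) and 16 of 35 with vehicle (7 higher, 9 lower), shares near the 32.7% and 37.5% of all genes. The most changed with vehicle in the authors' deposited table were Ttc30b, with a log2 fold change of -1.48, and Nfe2l1, with 0.75. Lnpk, next to cluster d, was lower in MEFs, with -0.52 and -0.64 for Adriamycin and vehicle, and in podocytes with vehicle, with -0.83. It was not listed as lower in podocytes with Adriamycin. In podocytes, 25 of the 40 were listed with Adriamycin (17 higher, 8 lower), among them all 7 listed neighbours of cluster d as higher, and 7 with vehicle (4 higher, 3 lower). Of all tested genes, 55.7% passed in podocytes with Adriamycin, 27.8% as higher, and 14.3% passed with vehicle.

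Cofactors and regulators of Hox genes were read from lists chosen with earlier results of these data known. The counts of these lists stand beside 32.7% and 37.5% of all tested genes that passed in MEFs with Adriamycin and vehicle, and 55.7% and 14.3% in podocytes. Of 9 TALE homeodomain genes, whose proteins bind DNA with Hox proteins, 2 were listed as higher and 3 as lower in podocytes with Adriamycin, and 4 as higher and none as lower with vehicle. Meis1 had log2 fold changes of 2.28 ± 0.22 and 0.61 ± 0.19 for Adriamycin and vehicle in the authors' deposited tables. In MEFs none was higher and 1 lower with Adriamycin, and 2 were higher and 1 lower with vehicle. Pbx3 was lower there, with -0.65 ± 0.16 and -0.61 ± 0.13, and higher in podocytes with vehicle, with 0.57 ± 0.11. Meis2 had 0.32 ± 0.11 in MEFs with vehicle.

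Of 12 genes of Polycomb repressive complex 2, which silences Hox genes, 1 was higher and none lower in MEFs with Adriamycin, and 2 were higher and 5 lower with vehicle. The methyltransferase gene Ezh2 had -0.63 ± 0.09 and the accessory gene Phf19 had -1.83 ± 0.16 in the authors' deposited table of MEFs with vehicle, where Phf1 had 0.77 ± 0.14 and Jarid2 had 0.37 ± 0.12. In podocytes, 6 were listed as higher and 4 as lower with Adriamycin, Ezh2 with 0.42 ± 0.05, and 2 as higher with vehicle. Of 20 genes of Polycomb repressive complex 1, 4 were higher and 2 lower in MEFs with Adriamycin, and 2 were higher and 2 lower with vehicle. With vehicle these were Pcgf3 (0.35 ± 0.06) and Pcgf2 (0.36 ± 0.11), and Phc1 (-0.66 ± 0.12) and Kdm2b (-0.33 ± 0.10). In podocytes, 9 were listed as higher and 8 as lower with Adriamycin, and 2 as higher and 3 as lower with vehicle.

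Of 18 genes of MLL complexes and related enzymes that keep Hox genes active, 1 was higher and 4 lower in MEFs with Adriamycin, and 3 were higher and 9 lower with vehicle, with a median log2 fold change of -0.14 and -0.22. In the authors' deposited tables Rbbp5, a core subunit, had -0.52 ± 0.11 and -0.70 ± 0.10, and Psip1, which tethers MLL to chromatin, had -0.33 ± 0.12 and -0.63 ± 0.08. Kdm6b, a demethylase, had 0.39 ± 0.10 and 0.53 ± 0.09, and Aff4, a part of the super elongation complex, had 0.44 ± 0.07 with vehicle. In podocytes, 10 were listed as higher and 3 as lower with Adriamycin, and none was listed with vehicle. Over all tested genes, 55.7% passed in podocytes with Adriamycin, and 32.7% and 37.5% in MEFs with Adriamycin and vehicle.

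Of 17 genes of retinoic acid signalling, which induces anterior Hox genes in the embryo, 6 of 15 tested were higher and none lower in MEFs with Adriamycin, and 8 of 13 tested were higher and 1 lower with vehicle, beside 16.6% and 17.8% of all genes that were higher. Crabp2, a carrier of retinoic acid, had 0.76 ± 0.23 and 1.47 ± 0.24 for Adriamycin and vehicle in the authors' deposited tables. With vehicle, Cyp26b1, which degrades retinoic acid, had 0.75 ± 0.15. In podocytes, 3 were listed as higher and 6 as lower with Adriamycin, and 2 as higher and 1 as lower with vehicle. Hoxb1, a textbook target of this pathway, had no adjusted p in MEFs.

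Other positional genes of fibroblasts passed in small numbers in MEFs. Of 48 transcription factor genes of regional identity, 1 of 43 tested was higher and 4 lower with Adriamycin, and 3 of 44 were higher and 1 lower with vehicle, with Tbx3 at 0.46 ± 0.12, Tbx20 at 1.21 ± 0.32 and Tbx15 at -0.29 ± 0.10 in the authors' deposited table for vehicle. In podocytes, 3 were listed as higher and 9 as lower with Adriamycin, and 4 as higher and 1 as lower with vehicle. Of 16 genes that Hox proteins act on or with in mesenchyme, 2 of 14 were higher and 6 lower in MEFs with Adriamycin, and 2 of 14 were higher and 3 lower with vehicle. In the authors' deposited tables Fgf10, a limb bud growth factor gene, had -1.47 ± 0.20 and -0.72 ± 0.20, Epha3 had -0.82 ± 0.17 and -0.55 ± 0.19, Bmp7 had 1.20 ± 0.37 and 2.28 ± 0.62, and Bmp2 had 0.82 ± 0.25 and 1.21 ± 0.34. In podocytes, 5 were listed as higher and 2 as lower with Adriamycin, and 5 as higher and none as lower with vehicle. Of 10 signalling inputs to Hox genes, 5 were tested in MEFs, with 1 higher (Ctnnb1, 0.45 ± 0.09 and 0.36 ± 0.07 for Adriamycin and vehicle) and 1 lower (Fgf10) under either condition, and in podocytes 1 was listed, as lower with Adriamycin. Of 8 ParaHox and Evx genes only Evx2, beside cluster d, could be tested in MEFs, at -0.33 ± 0.38 and 0.33 ± 0.47, Evx1 had mean counts of 1.20 and 0.310, and none was listed in podocytes.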

How the data were processed

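RNA was sequenced from 24 samples in 8 groups of 3, and the deposited files are 4 tables of the authors' comparisons. Per the submitters' processing notes, the tools were DESeq2 1.4.1, featureCounts 1.4.5-p1 and TopHat2 2.0.13, and the build GRCm38. The signal in the tables is the mean normalized count over the samples compared, made by the authors. The deposited log2 fold change, its standard error, the Wald statistic (a score) and the p-value with its adjusted p-value are also those of the authors' DESeq2 run. In MEFs with vehicle the median SE was 0.434 for genes with a mean count under 1 and 0.683 for those from 1 to 10, and no fold change of the first class passed 1.02, so fold changes of genes with few reads are limited in size and may understate the change. The MEF tables hold 43626 genes each, and those of podocytes hold genes under an adjusted p of 0.05 alone; the number tested, 17184 with Adriamycin and 13876 with vehicle, was recovered from the ratio of adjusted p to p and the rank. Normalization was done by the authors per table.

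No column holds a value per sample, so depth per library is unknown, the SE gives the precision, and no count test, SD or left-out sample could be computed. A gene passed when its adjusted p was below 0.05 over all genes of its table. Differences between tables were tested per gene by a z statistic on the fold changes and SEs (two-sided, Benjamini-Hochberg over all genes compared). The calculation was run on fold changes drawn with normal errors of the deposited MEF SEs, as the test itself assumes. That run checks the calculation alone, and neither those assumptions nor genes that entered by passing in podocytes. The tests with podocytes were added after the data were seen. Exon lengths, overlaps and coordinates come from GENCODE M21, and levels per kb use the union of annotated exons. Promoters come from RefSeq; a planned comparison of Hox proteins was not run. Members passing a test, those just beyond it and the highest of each cluster are named, and of each list at most 4 genes, chosen by their adjusted p in MEFs with vehicle as the 2 leading ones in either direction (where no gene passed, the 2 leading ones by p); Meis1, Ttc30b, Nfe2l1, Lnpk, Hoxd4 and the noncoding genes were singled out after their values were seen. Some genes that the rule would name are not reported here. The members and lists were chosen with earlier results of these data known. Alternatives tried were a threshold of 0.01, a 2-fold minimum, a mean count of at least 100, adjustment over every gene with a p, and centring on the median of tested genes whose mean count reached 100. The work used Python 3.11.15, numpy 2.4.6, pandas 2.3.3, scipy 1.17.1 and matplotlib 3.10.9.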

Additional observations from a re-analysis of the deposited data

Results flagged for a closer look

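Results are given here because the effect of MOF depletion differed between the drug conditions or between the cell types by the z test. Genes entered these tests only after passing in the podocyte table or tables, the test was chosen after the data were seen, and no cause was tested. In podocytes, the fold change with Adriamycin minus that with vehicle was -1.40 for Hoxa7, -1.22 for Hoxc11, -1.03 for Hoxc10, -1.01 for Hoxa5, -0.55 for Hoxc13, 0.53 for Hoxb2 and 0.56 for Hoxb5 on the log2 scale.

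Between cell types with vehicle, the fold change in podocytes minus that in MEFs was 1.23 for Hoxb8, 0.87 for Hoxa10, 0.86 for Hoxa7, 0.71 for Hoxc9, 0.64 for Hoxc8, 0.61 for Hoxa5, 0.61 for Hoxb2, 0.58 for Hoxa9, 0.55 for Hoxa3 and -1.55 for Hoxc13. With Adriamycin, podocytes had the higher fold change for Hoxc4 (by 1.16), Hoxb8 (1.12), Hoxc6 (1.07), Hoxb2 (0.95), Hoxc5 (0.88), Hoxd8 (0.82), Hoxa10 (0.63), Hoxb6 (0.63), Hoxb3 (0.59) and Hoxb5 (0.57). The difference was below 0 for Hoxa7 (-0.66), Hoxc10 (-0.77), Hoxd10 (-2.02), Hoxc13 (-2.03) and Hoxa13 (-2.05), of which Hoxd10 and Hoxa13 had mean counts of 4.27 and 10.1 in podocytes.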

How the results depend on the processing

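Counts of Hox genes that passed depended on the threshold. In MEFs with Adriamycin the 5 became 1 at an adjusted p below 0.01 and 1 when a 2-fold change was asked for, Hoxc13 in both cases, beside 21.8% and 3.92% of all tested genes. The 5 became 4 (3 higher, 1 lower) with adjustment over every gene with a p (beside 14.4%) and with centring (beside 32.6%). They stayed 5 with a mean count of at least 100 (beside 38.9%). That count was reached by 7, 8, 7 and 4 members of clusters a to d. In MEFs with vehicle the 3 became 1 at 0.01 (Hoxc13, beside 28.1%). They also became 1 when a mean count of at least 100 was required (Hoxb5, beside 48.2%). There it was reached by 7, 8, 6 and 4 members of clusters a to d. With a 2-fold minimum, podocytes had 6 members in place of 21 with Adriamycin (2 higher, 4 lower, beside 14.9%) and 0 in place of 16 with vehicle (beside 2.22%). The difference between cell types with vehicle fell to 5 of 16 members at 0.01 in place of 10. Single members that had passed in MEFs were followed under the alternatives other than the 2-fold minimum, which gave 30 values. Of these, 22 stayed on their side of the threshold, 8 no longer passed and 0 changed direction. Only centring alters a fold change, and by little, so the direction was all but fixed in advance. The 30 leave out Hoxc13 and Hoxd3 with vehicle under the minimum mean count, which removed them. The median of the members in MEFs with Adriamycin, -0.02, was 0.02 when members without an adjusted p were included. The drug difference in MEFs gave 0 members under each alternative run.

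No paired analysis was possible because no file holds a value per sample. Leaving out samples and a count model of another tool were not run for the same reason. Members with few reads, such as Hoxd3, Hoxa13, Hoxc12 and Hoxd10, rest on mean counts of 4.27 to 11.1 in the tables where they passed.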
